A study of Mus musculus with 10 samples.

Results

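The replication-dependent core histone genes were followed across 10 RNA-seq libraries of sorted mouse cells. Members were taken by name: gene symbols that start with H2ac, H2bc, H3c or H4c and a digit, or whose older names start with Hist1h, Hist2h, Hist3h or Hist4h, without the H1 linker histones. The reference matched 65 such genes and the deposited tables held values for 59 of them, among 17603 genes in all. They were 18 H2A, 17 H2B, 12 H3 and 12 H4 genes, and 46 of them lie on chromosome 13, 10 on chromosome 3, 2 on chromosome 11 and 1 on chromosome 6. Another 6 matched genes (H2bu1-ps, H2ac14, H4c17, H2ac5-ps, H2bc1 and H2af-ps2) were not analysed here. The group was chosen by its measured levels: lower values in splenic CD45+ than in splenic CD45- cells, and a wide spread between libraries. Levels and differences of the members are therefore given as descriptions. Counts of members past the threshold of the fit over all genes stand beside the share of all genes, and nothing is read from them as a test, since all 3 comparisons use libraries by which the group was chosen.

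All libraries came from wild-type female C3H/HeN mice injected with SCC7, a squamous carcinoma line of the mouse, and labelled with the disease state HNSCC (head and neck squamous cell carcinoma). No further treatment is named. The sorted cells are called EPC in the labels, which do not spell the abbreviation out. They form 3 groups: splenic CD45- cells (n = 3), splenic CD45+ cells (n = 3) and tumor CD45+ cells (n = 4), where CD45 is the surface phosphatase of white blood cells, encoded by Ptprc. The labels give no ages and do not say whether replicates came from separate mice, so every p-value below reflects a spread between libraries that may be technical. From splenic CD45- to tumor CD45+ cells both the tissue and the CD45 gate change, and their parts cannot be told apart. The 3 comparisons share libraries with each other and are not independent.

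Each nucleosome is wrapped around a core of the histones H2A, H2B, H3 and H4. Replication-dependent histone genes supply these proteins for newly copied DNA. They lie in clusters, lack introns, and are transcribed mainly in S phase under the coactivator NPAT and the cyclin E kinase. Their messages usually end just past a conserved stem-loop instead of a poly(A) tail, and the stem-loop binding protein SLBP carries that end through processing, translation and decay. In differentiated cells some of these genes can also give messages with a poly(A) tail. Erythroid precursors divide rapidly and then shut the cell cycle down as they lose the nucleus. The sources used here do not say whether RNA was selected for poly(A), nor whether libraries kept the strand.

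The annotated 3′ ends are printed first because most members share a stem-loop there. Which ends the sequenced messages carried was not measured, so the levels below are not tied to either kind of end. A search of GENCODE transcripts (release vM21, GRCm38) after the stop codon for the motif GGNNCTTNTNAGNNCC with all 6 base pairs of the stem found a stem-loop of 16 bases in 41 members: 11 H2A, 10 H2B, 9 H3 and 11 H4 genes. It began 21 to 58 bases after the stop codon, with a median of 31. There were 8 forms. The form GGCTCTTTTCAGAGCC was shared by 10 H2A, 8 H2B and 5 H3 members and by the linker histones H1f2, H1f3 and H1f4. The H4 members carried stems with other bases at inner positions and the same pairs at both ends of the stem. Of the 39 members with a stem-loop and a single deposited model, 38 had a model that ended within 50 bases after it (median 5), and H3c6 had one that ran 428 bases past it. Where no stem-loop was found, the motif is only absent from the annotated transcript. The sites below are written 5′ to 3′ with 5 bases before and 9 after, and capitals mark the stem-loop.
H4c18: ctaaaGGCCCTTTTCAGGGCCatccaatta
H4c6: tcaaaGGCCCTTTTCAGGGCCacccacttt
H4c9: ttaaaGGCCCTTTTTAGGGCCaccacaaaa
H3c2: ccaaaGGCTCTTTTCAGAGCCacccacagt
H3c3: aaaaaGGCTCTTTTAAGAGCCacctaagat
H2ac18: aaaaaGGCTCTTTTCAGAGCCacccactga
H2bc3: ccaaaGGCTCTTTTAAGAGCCacccacact
H2bu2: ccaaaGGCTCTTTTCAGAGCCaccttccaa
In GRCm38.p6 these stem-loops lie at chr13:21831798-21831813 (minus strand) for H4c18, chr13:23551291-23551306 (minus) for H4c6, chr13:22040966-22040981 (minus) for H4c9 and chr13:23752820-23752835 (plus) for H3c2. Those of H3c3, H2ac18, H2bc3 and H2bu2 lie at chr13:23745047-23745062 (minus), chr3:96246032-96246047 (plus), chr13:23747203-23747218 (plus) and chr11:58949349-58949364 (plus). All are in the 3′ untranslated part of single-exon genes.

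In the annotation, 14 members also have a transcript that runs on and ends at a poly(A) signal (AATAAA or ATTAAA in the last 50 bases). A transcript with a stem-loop had to end 50 or more bases past it to count. H4c8 has a signal but ends 46 bases past its stem-loop, so it was not counted. The last 30 bases are shown for 3 of the 14 members with the signal in capitals, because their levels are described below.
H4c9: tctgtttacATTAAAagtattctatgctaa
H2bu2: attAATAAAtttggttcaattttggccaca
H2bc21: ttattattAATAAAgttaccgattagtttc
These ends lie at chr13:22040636-22040665 (minus) for H4c9, chr11:58949504-58949533 (plus) for H2bu2 and chr3:96223709-96223738 (plus) for H2bc21. In H4c9 and H2bu2 the longer transcript passes through the stem-loop and ends 330 and 169 bases beyond it. No stem-loop was found in the annotated transcript of H2bc21.

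Promoters were taken from RefSeq (GRCm38.p6) for 54 members, as the 250 bases upstream of the start. The letters CCAAT were present on either strand in 81.5% of them and in 34.5% of all 27025 promoters of that length. By type they occurred in every H2A and H2B promoter, in 80.0% of H3 promoters and in 27.3% of H4 promoters. TATAAA was found in 42.6% of members' promoters against 13% of all. The letters ATTTGCA, which the octamer factor POU2F1 is known to bind, were found in 22.2% against 3.48%, and only in H2A (38.9%) and H2B (33.3%) promoters. A match describes the letters and shows no binding. The upstream windows of H2bc3, which holds all 3 motifs, and of H4c9, which holds TATAAA alone, are printed with the motifs in capitals to show this contrast between types.
H2bc3: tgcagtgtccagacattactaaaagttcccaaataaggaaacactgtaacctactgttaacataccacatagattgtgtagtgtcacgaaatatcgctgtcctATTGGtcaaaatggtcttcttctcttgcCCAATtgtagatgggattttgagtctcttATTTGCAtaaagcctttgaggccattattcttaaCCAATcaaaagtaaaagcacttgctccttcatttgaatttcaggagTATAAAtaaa
H4c9: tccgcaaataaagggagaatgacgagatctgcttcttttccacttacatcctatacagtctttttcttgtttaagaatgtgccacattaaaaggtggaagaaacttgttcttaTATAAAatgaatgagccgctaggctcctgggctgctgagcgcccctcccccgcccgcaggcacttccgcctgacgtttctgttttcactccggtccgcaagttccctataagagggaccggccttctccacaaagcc
The windows are chr13:23746484-23746733 (plus) and chr13:22041363-22041612 (minus).

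The copies are alike enough that short reads can be hard to place. The 12 H4 members had 12 different coding sequences that encode 1 protein, and the 12 H3 members had 11 coding sequences for 2 proteins. The 18 H2A members encoded 9 proteins and the 17 H2B members 11. Windows of 100 bases were taken over the annotated transcripts, which can run past the deposited models. A member shared a median of 34.3% of its windows with another member, and 8 members shared none. In 4 pairs the coding sequences were identical (H2ac18 and H2ac19, H2ac23 and H2ac24, H2bc23 and H4bc24, H3c14 and H3c15), so the split of reads within each of these pairs is uncertain. H4bc24 is an H2B gene despite its symbol, with the older name Hist1h2br.

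Values are FPKM (fragments per kilobase of transcript, scaled to the mapped fragments of the library), a level per length that can be compared between genes. Depth was near 17800000 to 20500000 fragments per library, so 1 FPKM of a transcript of 500 bases, about the length of a histone message, rests on about 8.89 to 10.3 fragments. Some libraries stood apart. Splenic CD45+ replicate 2 correlated with its group at r = 0.933 and 0.951 across log2 levels of genes, against 0.986 between the other two. Tumor replicate 1 correlated with its group at 0.99 to 0.991, against 0.9985 to 0.999 among the others. Tumor replicates 2 and 3 differed by only 1.6 times the sampling noise, against 3.26 to 157 times for all other pairs of a group, and were kept as separate samples. Summed erythroid markers ran from 326341 to 416790 FPKM in splenic CD45-, 129735 to 276672 in splenic CD45+ and 6001 to 40982 in tumor CD45+ libraries, where 40982 belongs to replicate 1. Granulocyte markers summed to 380 to 506, 22166 to 74207 and 33.9 to 1681 FPKM, and macrophage markers to 50.2 to 97.2, 1368 to 3834 and 20342 to 40024. Epithelial markers summed to 0.03 to 0.81, 0.39 to 2.84 and 312 to 406. Nearly all of the tumor sum came from Krt8 (208 to 239 FPKM) and Krt18 (95.4 to 164). Of the 6 epithelial genes, 3 had a tumor mean under 1 FPKM (Krt5, Krt14 and Epcam). Epcam was at 0.02 to 0.04 FPKM in tumor and at 0.14 to 2.08 in splenic CD45+ libraries. B cell markers summed to 24.3 to 30.5, 138 to 1252 and 3.03 to 4.24 FPKM, T cell markers to 15.6 to 17.2, 34.8 to 171 and 1.59 to 9.33. Ptprc itself was at 1.63 to 2.57, 39.2 to 265 and 59.4 to 92.5 FPKM. The part of this mixture of cell types in the results below was not tested. In bulk samples, fewer cells of a type and less RNA per cell cannot be told apart.

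Core histone messages were most abundant in splenic CD45- cells and low in both CD45+ groups. The 59 members summed to 2984, 6008 and 1216 FPKM in the 3 splenic CD45- libraries. In splenic CD45+ libraries the sums were 427.5, 371 and 481 FPKM, and in tumor CD45+ libraries 433, 317, 341 and 350 FPKM. Every splenic CD45- library was above every CD45+ library, while the ranges of the splenic and tumor CD45+ groups overlapped. As group means this is 3403 ± 2423 (SD, n = 3), 427 ± 55.0 (SD, n = 3) and 360.03 ± 50.5 (SD, n = 4) FPKM. With trimmed-mean scaling the group means were 5610, 371 and 275 FPKM. The median member was at 53.6, 5.44 and 3.19 FPKM in the 3 groups. Group means reached 10 FPKM for 52 members in splenic CD45-, 13 in splenic CD45+ and 5 in tumor CD45+ cells.

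**Figure D1:**
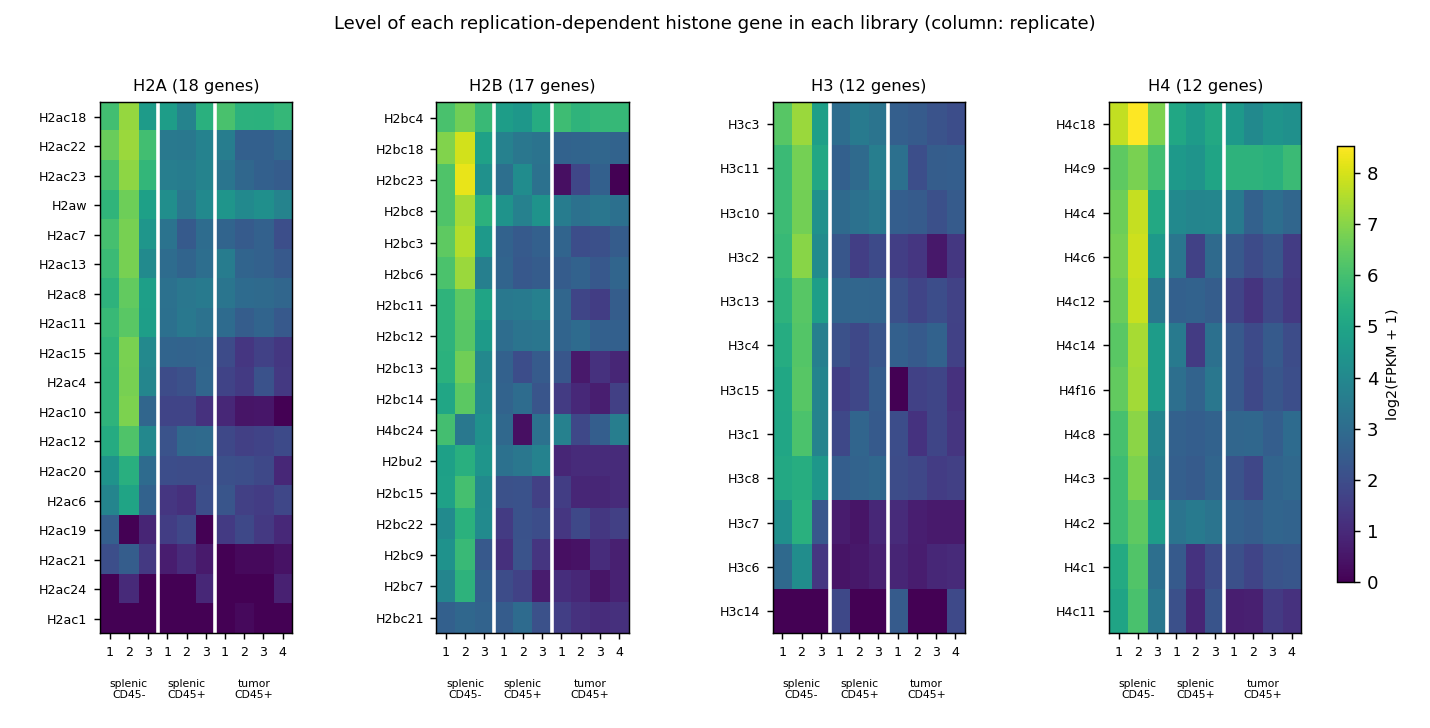
Level of each of the 59 members (rows, by histone type, ordered by mean level) in each library (columns, numbered by replicate within the 3 groups), as log2(FPKM + 1) from dark (low) to yellow (high). Replicate 2 of splenic CD45- cells has the brightest column, and H2ac18, H2bc4 and H4c9 stay bright in tumor CD45+ libraries.

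Relative to splenic CD45- cells, the members were lower in splenic CD45+ cells with few exceptions. Differences are in mean log2(FPKM + 1), which understates changes of genes with low values. Of 56 members that reached 1 FPKM in at least 3 of the 6 libraries, 53 passed an adjusted p below 0.05 as lower (limma), where 5.02% of all 9728 genes tested were called lower, 50.5% higher and 55.5% either way. H3c6 and H3c7 passed the filter on low values through splenic CD45- cells alone, so they had to differ. H3c7 is named for this after its values were seen. In 53 of the 56, all splenic CD45+ values lay below all splenic CD45- values, which held for 7.24% of all genes tested. The median member difference was -2.65, and the median over all genes tested was 0.67. Without splenic CD45- replicate 2 or replicate 3 the median member difference was -2.14 and -3.25.

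H4 genes had the lowest median difference of the 4 types and H2A genes the highest. The medians were -2.42 for H2A (16 members tested), -2.57 for H2B (17), -2.82 for H3 (11) and -3.0 for H4 (12). All 11 H3 and all 12 H4 members tested had groups that did not overlap, as had 14 of 16 H2A and 16 of 17 H2B members. By location, the median was -2.69 for 44 members tested on chromosome 13, -2.27 for 9 on chromosome 3, -1.62 for the 2 on chromosome 11 and -3.12 for H4f16 on chromosome 6. The 3 members whose groups overlapped, H2ac18, H2ac19 and H2bc21, all lie on chromosome 3. H2ac19 stayed at 0 to 4.93 FPKM and has the coding sequence of H2ac18, so its own difference of -0.04 is uncertain. Members within a type differed by more than these medians, as H2bc21 at -0.20 and H2bc3 at -3.62 did within H2B.

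Between tumor and splenic CD45+ cells the differences were smaller and of both signs. Of 54 members tested, 26 passed the threshold as lower in tumor cells (26.0% of all 11463 genes tested were called lower) and 3 as higher (37.7% of all genes were called higher, and 63.8% in either direction). The lower ones include H2ac10, which passed the filter through splenic CD45+ cells alone (2.05 against 0.447 FPKM as group means) and is named for this after its values were seen. The 3 higher ones were H4c9, H2bc4 and H2ac18. The groups did not overlap for 25 lower and 3 higher members, against 28.1% and 38.4% of all genes tested. The median member difference was -0.63, and the median over all genes was 0.20. By type the medians were -0.42 for H2A, -0.85 for H2B, -0.77 for H3 and -0.63 for H4. Members passing as lower numbered 5 of 15 H2A, 11 of 17 H2B, 5 of 10 H3 and 5 of 12 H4 genes. Without splenic CD45+ replicate 2 the H4 count was 8 of 12. H2ac18 did not pass with either other scaling, without the filter, with all libraries in 1 fit, with the replicate block, with tumor replicates 2 and 3 averaged, or without any 1 library other than splenic CD45+ replicate 3, so the count of higher members was then 2. With all 10 libraries in 1 fit, 8 members passed as lower, and 17 did with the replicate number as a block.

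Tumor CD45+ cells stood furthest from splenic CD45- cells. Of 56 members tested, 54 passed as lower (22.5% of all 11208 genes tested were called lower, 67.5% higher and 90.0% either way). These include H2ac10 and H2ac21, which passed the filter through splenic CD45- cells alone. In 52 the groups did not overlap with tumor values lower, which held for 22.2% of all genes, while 66.5% of all genes had higher tumor values with no overlap. The median member difference was -3.30, and that of all genes tested was 1.06. The type medians were -2.85 for H2A, -3.47 for H2B, -3.32 for H3 and -3.44 for H4. H2ac19 was the only member tested with a difference above 0, at 0.26.

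**Figure D2:**
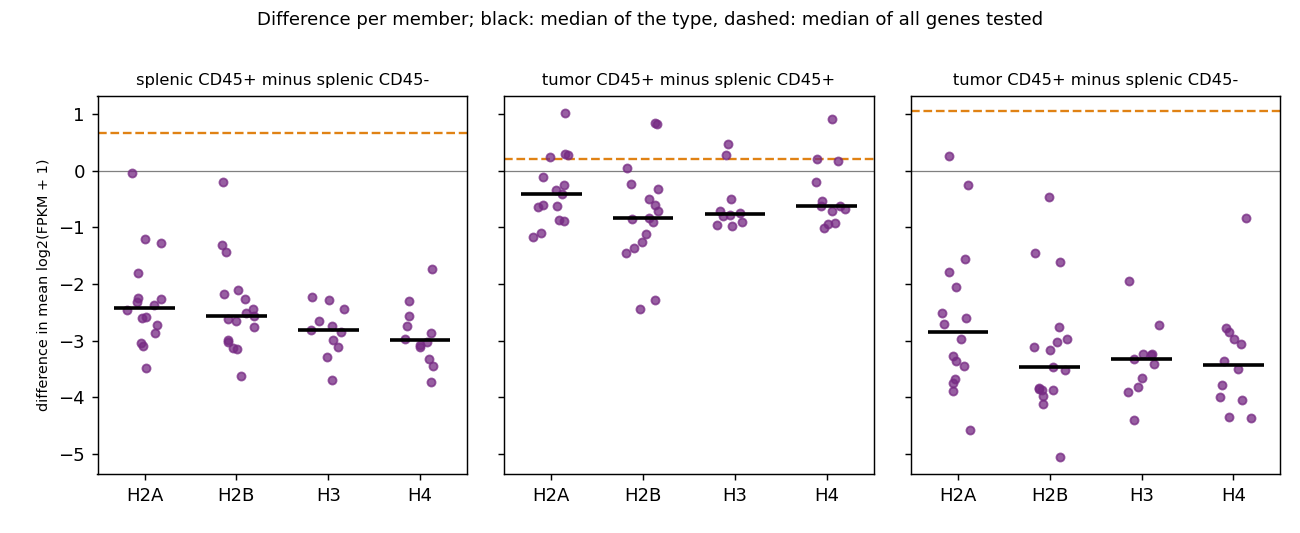
Difference in mean log2(FPKM + 1) of each tested member (points) by histone type in the 3 comparisons, with the median of the type (black line) and of all genes tested (dashed line at 0.67, 0.20 and 1.06). Nearly all points lie below 0 in both comparisons with splenic CD45- cells, and points lie on both sides of 0 between tumor and splenic CD45+ cells.

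The make-up of the pool also differed between the groups. H3 messages took 15%, 14.8% and 15.4% of the members' summed FPKM in splenic CD45- libraries, 10.6%, 13.6% and 12.2% in splenic CD45+ libraries, and 9.34%, 8.72%, 8.42% and 7.84% in tumor CD45+ libraries. The 3 groups did not overlap in this share. H2A took 24.3% ± 1.6 (SD, n = 3), 28% ± 1.69 (SD, n = 3) and 32.8% ± 3.0 (SD, n = 4). The H2A gene H2ac18 alone was at 76.4, 26.8 and 51.0 FPKM as group means, within H2A sums of 806, 120 and 119 FPKM. H2B held 28.6%, 31.9% and 29.1% and H4 held 32%, 28% and 29.5% as group means. Chromosome 13 supplied 82.4% ± 0.488 (SD, n = 3), 77.8% ± 2.73 (SD, n = 3) and 74.2% ± 1.14 (SD, n = 4) of the sum, and chromosome 3 supplied 12.1%, 14.8% and 19.9%. The chromosome 3 share of tumor libraries, 18.9% to 21.1%, lay above the 11% to 16.3% of all splenic libraries. H2ac18 also lies on chromosome 3, where the sums were 425, 63.7 and 72.0 FPKM as group means, so most of the tumor sum there was this gene. Shares without H2ac18 were not computed. The rises of the H2A and chromosome 3 shares are therefore not shown for the other genes.

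The pool was concentrated in fewer genes in tumor cells. The 5 highest members held 21.5% of the members' sum in splenic CD45-, 30.03% in splenic CD45+ and 51.3% in tumor CD45+ cells. H4c18 was the highest member in splenic CD45- (6.83% of the sum) and splenic CD45+ cells (7.21%). In tumor cells H2bc4 was highest with 14.2% of the sum, followed by H2ac18, H4c9, H4c18 and H2aw.

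**Figure D3:**
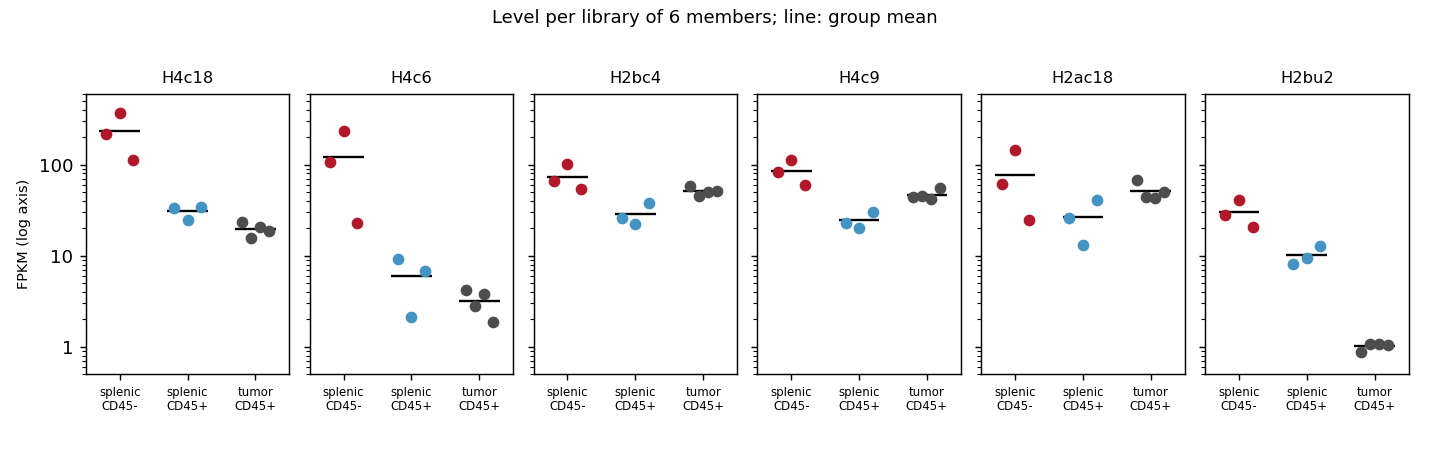
FPKM (log axis) of 6 members in each library (points, with the group mean as a line). H4c18 and H4c6 are lower in CD45+ than in splenic CD45- cells, H2bc4, H4c9 and H2ac18 are higher in tumor than in splenic CD45+ cells, and H2bu2 sits near 1 FPKM in tumor cells.

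The H4 genes all encode the same protein, and their levels differed between groups in more than 1 way. H4c18 (chr13:21831792-21832197, minus) was at 215, 369 and 113 FPKM in splenic CD45- libraries, 33.3, 24.4 and 34.6 in splenic CD45+ libraries and 23.7, 15.5, 20.4 and 18.6 in tumor CD45+ libraries. Each group lay below the one before it with no overlap. Its difference was -2.74 ± 0.41 (SE) between the splenic groups, -0.63 ± 0.20 (SE) from splenic to tumor CD45+ cells and -3.36 ± 0.34 (SE) from splenic CD45- to tumor cells. H4c6 (chr13:23551286-23551668, minus), the member with the lowest difference of all between the splenic groups, was at 105, 232 and 22.7 FPKM in splenic CD45- libraries. It was at 9.26, 2.13 and 6.77 FPKM in splenic CD45+ and at 4.21, 2.82, 3.82 and 1.89 FPKM in tumor CD45+ libraries. All CD45+ values lay below all CD45- values, and splenic and tumor CD45+ values overlapped. The differences were -3.73 ± 0.82 (SE) between the splenic groups and -0.63 ± 0.41 (SE) from splenic to tumor CD45+ cells.

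H4c9 (chr13:22040960-22041362, minus) took another course. It was at 83.9, 111 and 60.3 FPKM in splenic CD45-, 22.7, 20.4 and 30.5 in splenic CD45+ and 44.3, 44.7, 41.5 and 54.8 in tumor CD45+ libraries. The tumor values lay between those of the splenic groups, with no overlap on either side. The differences were -1.73 ± 0.27 (SE), 0.90 ± 0.18 (SE) and -0.83 ± 0.19 (SE) in the same order of comparisons. In splenic CD45- cells H4c18 was above H4c9 in every library, and in tumor cells H4c9 was above H4c18 in every library. H4c9 shared 15.1% of the windows of its annotated transcript with another member. That transcript has 727 bases and runs 330 bases past the stem-loop, whereas the deposited model ends 6 bases past it. The coding sequence of H4c9 is 96.8% identical to that of H4c18.

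The remaining H4 genes that the naming rule selected were, like H4c18, highest in splenic CD45- cells. H4c4 was at 98.6, 217 and 34.1 FPKM in splenic CD45-, 15.6, 13.6 and 14.0 in splenic CD45+ and 10.4, 5.21, 7.43 and 6.0 in tumor CD45+ libraries, with differences of -2.57, -0.94 and -3.51. H4c14, on chromosome 3, was at 81.4, 171 and 25.6 FPKM in splenic CD45-, at 10.5, 1.81 and 7.89 in splenic CD45+ and in tumor cells at 4.18, 2.80, 4.37 and 2.96. The CD45+ groups overlapped in H4c14 because splenic replicate 2 was the lowest value of all. H4f16, the sole member on chromosome 6 (older name Hist4h4), was at 88.0, 162 and 25.5 FPKM in splenic CD45-, 7.62, 5.54 and 9.43 in splenic CD45+ and 4.17, 2.6, 3.88 and 3.14 in tumor CD45+ libraries. No groups overlapped in H4f16, and its differences were -3.12 ± 0.61 (SE), -0.93 ± 0.21 (SE) and -4.05.

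All H3 genes tested were lower in both CD45+ groups than in splenic CD45- cells. H3c3 (chr13:23745042-23745521, minus), the H3 member with the highest mean, was at 78.1, 152 and 27.3 FPKM in splenic CD45-, 7.30, 10.4 and 8.62 in splenic CD45+ and 4.95, 4.49, 3.49 and 3.07 in tumor CD45+ libraries. No groups overlapped, and the differences were -2.85, -0.97 and -3.82. H3c2 (chr13:23752345-23752840, plus) had the lowest H3 difference between the splenic groups, -3.69 ± 0.66 (SE). Its values were 52.9, 129 and 16.2 FPKM in splenic CD45-, 3.88, 2.03 and 2.78 in splenic CD45+ and 2.02, 1.53, 0.47 and 1.62 in tumor CD45+ libraries. The CD45+ groups of H3c2 lay side by side without overlap, at 2.03 FPKM or more and 2.02 FPKM or less.

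H3c11 and H3c10 showed the same order of groups. H3c11 was at 55.4, 106 and 33.4 FPKM in splenic CD45-, 5.14, 6.71 and 11.4 in splenic CD45+ and 7.89, 3.13, 4.73 and 4.84 in tumor CD45+ libraries. H3c10 was at 56.1, 105 and 18.9, at 6.68, 7.99 and 9.71, and at 4.89, 4.44, 3.19 and 4.46 FPKM. The CD45+ groups overlapped in H3c11 and did not in H3c10. On chromosome 3, H3c13 was at 45.2, 79.1 and 26.3 FPKM in splenic CD45-, 5.94, 5.98 and 5.83 in splenic CD45+ and 3.20, 2.34, 3.08 and 2.22 in tumor CD45+ libraries, a difference of -2.75 between the splenic groups. H3c15 and H3c14 have the same coding sequence, and H3c14 was above 0 in only 3 libraries (2.62 FPKM in splenic CD45+ replicate 1, 4.51 and 2.65 in tumor replicates 1 and 4). Their sum was 32.6, 78.4 and 13.3 FPKM in splenic CD45-, 4.59, 2.52 and 4.59 in splenic CD45+ and 4.51, 2.17, 2.47 and 3.98 in tumor CD45+ libraries. H3c6, whose deposited model runs past the stem-loop, was low throughout: 6.59, 17.3 and 1.54 FPKM in splenic CD45- and between 0.37 and 1.00 FPKM in all CD45+ libraries. It passed the filter through splenic CD45- cells alone.

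H2B held both the member with the lowest difference from splenic CD45- to tumor cells and one of the highest. H2bc4 (chr13:23684199-23692480, plus), which has 2 deposited models, was at 66.1, 101 and 53.9 FPKM in splenic CD45-, 25.8, 22.1 and 38.2 in splenic CD45+ and 58.0, 45.5, 50.04 and 51.4 in tumor CD45+ libraries. Tumor values lay above all splenic CD45+ values and overlapped the splenic CD45- values. The differences were -1.32 ± 0.30 (SE), 0.85 ± 0.21 (SE) and -0.47 ± 0.19 (SE).

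The 2 models of H2bc4 differed in their order of groups. One was at 41.8, 73.6 and 25.3 FPKM in splenic CD45- libraries, 5.24, 0.31 and 10.3 in splenic CD45+ libraries and 1.92, 3.25, 3.87 and 1.03 in tumor CD45+ libraries. The other was at 24.2, 27.8 and 28.6 FPKM in splenic CD45-, 20.6, 21.8 and 27.9 in splenic CD45+ and 56.1, 42.3, 46.2 and 50.4 in tumor CD45+ libraries. The first model was highest in splenic CD45- cells in every library, and the second was higher in every tumor library than in any splenic library. The sources used here do not say how reads were divided between overlapping models.

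H2bc3 (chr13:23746734-23747223, plus) was the H2B gene with the lowest difference between the splenic groups, -3.62 ± 0.65 (SE). It was at 83.9, 186 and 23.6 FPKM in splenic CD45-, 5.40, 4.35 and 5.07 in splenic CD45+ and 5.68, 3.01, 3.27 and 4.63 in tumor CD45+ libraries. H2bc18, on chromosome 3, was at 120, 245 and 28.7 FPKM, then 12.6, 9.34 and 8.46, then 5.39, 5.73, 6.11 and 5.55. The CD45+ groups overlapped in H2bc3 and did not overlap in H2bc18. H2bc23 showed the lowest difference from splenic CD45- to tumor cells, -5.06, but its coding sequence is that of H4bc24 and the split between the 2 genes varied from library to library. Their sum was 135, 315 and 37.9 FPKM in splenic CD45-, 14.1, 17.1 and 16 in splenic CD45+ and 12.7, 5.16, 9.97 and 11.6 in tumor CD45+ libraries.

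H2bu2 (chr11:58948911-58949372, plus; older name Hist3h2ba) was the member furthest below in tumor against splenic CD45+ cells. It was at 27.8, 41.2 and 20.6 FPKM in splenic CD45-, 8.18, 9.46 and 12.7 in splenic CD45+ and 0.88, 1.07, 1.09 and 1.05 in tumor CD45+ libraries. No groups overlapped, and the differences were -1.44 ± 0.29 (SE), -2.44 ± 0.16 (SE) and -3.88 ± 0.20 (SE). It shared no window of 100 bases with another member. H2bc21 (chr3:96221072-96223738, plus) differed from the other members. Its values were 5.16, 6.24 and 5.57 FPKM in splenic CD45-, 4.61, 6.92 and 3.37 in splenic CD45+ and 2.00, 1.35, 1.14 and 1.29 in tumor CD45+ libraries. The splenic groups overlapped and all tumor values lay below them. The differences were -0.20 ± 0.26 (SE), -1.26 ± 0.22 (SE) and -1.45 ± 0.12 (SE).

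H2A genes included the member that was least reduced in tumor cells among those of high level. H2ac18 (chr3:96245497-96246052, plus) was at 60.5, 144 and 24.5 FPKM in splenic CD45-, 26.1, 13.1 and 41.3 in splenic CD45+ and 67.0, 44.1, 42.8 and 49.9 in tumor CD45+ libraries. All tumor values lay above the splenic CD45+ values, and splenic CD45- values overlapped both groups, with the lowest inside the splenic CD45+ range and below all tumor values. The differences were -1.27 ± 0.65 (SE), 1.01 ± 0.36 (SE) and -0.26 ± 0.49 (SE). Without splenic CD45+ replicate 2 the difference between tumor and splenic CD45+ cells was 0.60, and without tumor replicate 1 it was 0.88. Adding H2ac19, its copy with the same coding sequence, gave 65.4, 144 and 25.4 FPKM in splenic CD45-, 28, 15.7 and 41.3 in splenic CD45+ and 68.7, 46.7, 44.5 and 50.8 in tumor CD45+ libraries, so the order of the groups did not rest on the split. H2ac19 alone stayed between 0 and 4.93 FPKM in all libraries.

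H2ac22 and H2ac23, the next highest H2A genes, followed the common course. H2ac22 was at 94.4, 152 and 61.0 FPKM in splenic CD45-, 9.88, 9.62 and 12.9 in splenic CD45+ and 11.3, 5.15, 5.07 and 6.23 in tumor CD45+ libraries. H2ac23 was at 65.1, 136 and 48.9, at 11.6, 11 and 13, and at 8.90, 6.19, 5.11 and 4.59 FPKM. The tumor values of H2ac23 lay below its splenic CD45+ values, and those of H2ac22 overlapped them. H2aw, on chromosome 11 (older name Hist3h2a), was at 46.6, 99.4 and 27.6 FPKM in splenic CD45-, 17.5, 9.47 and 15.6 in splenic CD45+ and 20.7, 15.5, 17.8 and 13 in tumor CD45+ libraries. Its CD45+ groups overlapped, with a difference of 0.25 between them. H2ac20, on chromosome 3, was at 19.8, 40.9 and 6.97 FPKM, then 3.00, 2.98 and 2.93, then 3.21, 3.13, 2.61 and 0.94. H2ac21 never exceeded 4.72 FPKM, and H2ac1, known from testis, was at 0 in all but 1 library.

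Of all 59 members, 58 reached 1 FPKM in at least 1 library, 57 in at least 3 and 39 in all 10.

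Neighbours that share a promoter region were compared because 11 pairs of members start head to head, 163 to 267 bases apart (median 191), each an H2A gene beside an H2B gene. Between the splenic groups, partners' differences were 0.30 apart in the median of the 10 pairs with both genes tested and 2.07 apart at most. That largest gap was between H2ac20 (-2.27) and H2bc21 (-0.20), whose starts lie 191 bases apart. Between tumor and splenic CD45+ cells partners were 0.54 apart in the median. H2bc4 and its partner H2ac6, 239 bases apart, were unequal in level. H2ac6, named here after its values were seen, was at 13.7, 30.4 and 5.45 FPKM in splenic CD45-, 1.57, 1.27 and 3.10 in splenic CD45+ and 3.78, 2.06, 1.84 and 2.51 in tumor CD45+ libraries.

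By annotated end, the members with a transcript ending at a poly(A) signal differed little from the rest between the splenic groups. The median difference there was -2.65 for these 14 members, -2.57 for the 18 that end at the stem-loop, -2.62 for 13 with a long transcript without a signal and -2.82 for 14 whose transcript stops before a stem-loop. Between tumor and splenic CD45+ cells the medians were -0.33, -0.63, -0.72 and -0.87 in the same order. These medians are over the members tested in each class. The classes come from GENCODE transcripts, whereas the levels are those of the deposited models. For H4c9 and H2bu2 the deposited models end 6 and 8 bases past the stem-loop and leave out the longer end. The medians therefore do not separate messages by their ends. H4c9, with the highest tumor level of the class with a poly(A) signal, and H2bu2, with the lowest difference of all members in that comparison, are in the same class.

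Within splenic CD45- cells the members varied together between libraries, over a far wider range than other S-phase genes. Replicate 2 was 2.06 times replicate 1 in the median member and higher in 54 of 56, replicate 3 was 0.351 times replicate 1, and replicate 2 was 5.58 times replicate 3 and higher in 54 of 55. The summed level of 35 genes of DNA replication was 5650, 5578 and 5528 FPKM in the same 3 libraries, with median ratios of 0.991, 0.995 and 0.976. The 6 linker histone genes, which are no members, had the same order of libraries: their sum was 330, 715 and 151 FPKM and their median ratios were 2.44, 0.383 and 6.37. Erythroid markers summed to 416790, 397224 and 326341 FPKM in these libraries. What sets the libraries apart was not tested.

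The size of this spread differed between members. By type, the median ratio of replicate 2 over replicate 3 was 5.06 for H2A, 4.17 for H2B, 5.58 for H3 and 6.90 for H4. The lowest ratios outside the uncertain pair were 1.12 for H2bc21, 1.78 for H3c8 and 1.84 for H4c9. The highest were 24.5 for H4c12 and 18.7 for H2ac10. H3c8, H4c12 and H2ac10 are named for these extremes, after their values were seen.

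In splenic CD45+ cells replicate 2 stood apart in the replication genes, in several other lists and in cell type markers. Across replicates 1, 2 and 3, mitosis genes summed to 1926, 4411 and 2460 FPKM and histone transcription genes to 228, 560 and 227. Stem-loop processing genes summed to 1647, 3449 and 1554 FPKM and histone chaperones to 799, 1893 and 805. Genes of poly(A) tailing did not share this, at 1150, 1073 and 1032 FPKM. Replicate 2 was 3.24 times replicate 1 in the median DNA replication gene and higher in 35 of 35, while the median member was at 0.950 times. The replication list summed to 2491, 7642 and 2584 FPKM there, and to 1221, 1259, 1270 and 1234 FPKM in tumor CD45+ libraries. In splenic CD45+ replicates 1, 2 and 3, Ptprc was at 265, 39.2 and 153 FPKM, B cell markers summed to 1252, 138 and 1135 FPKM and T cell markers to 171, 34.8 and 146 FPKM. Macrophage markers summed to 3834, 1368 and 3700 FPKM and erythroid markers to 223319, 129735 and 276672 FPKM, so replicate 2 was lowest in each of these while highest in the replication genes. Their part in the replication values was not tested. Member sums per unit of the replication sum were 0.528, 1.08 and 0.220 in splenic CD45-, 0.172, 0.0486 and 0.186 in splenic CD45+ and 0.354, 0.251, 0.268 and 0.284 in tumor CD45+ libraries. Tumor libraries lay above all splenic CD45+ libraries in this ratio and overlapped the splenic CD45- range.

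**Figure D4:**
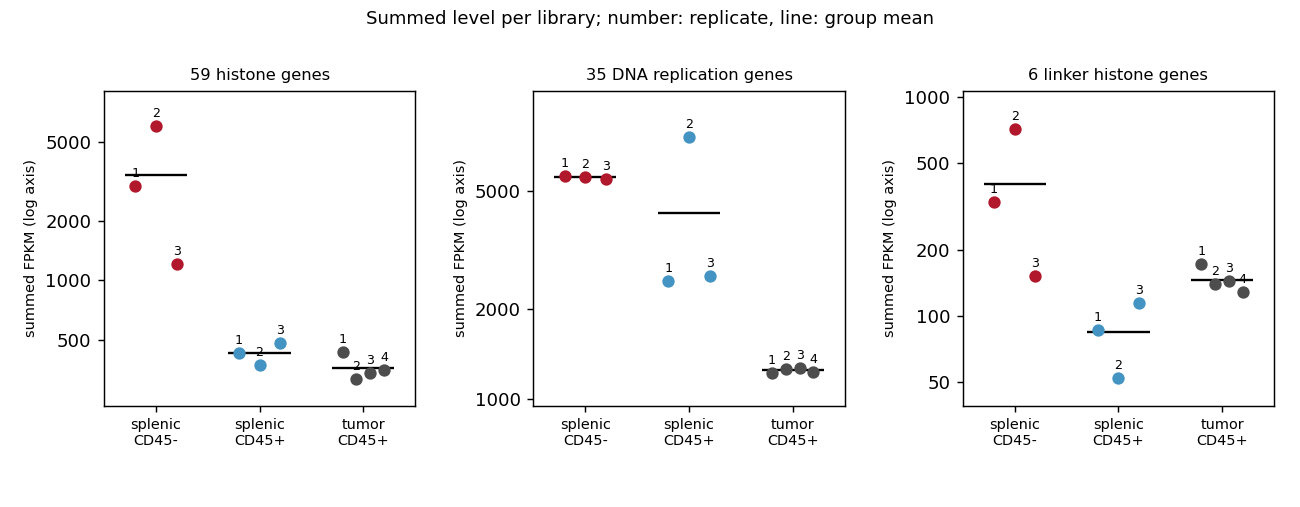
Summed FPKM (log axes) per library of the 59 core histone genes, 35 DNA replication genes and 6 linker histone genes, with replicate numbers and group means (lines). In splenic CD45- cells the core and linker histones spread over 1216 to 6008 and 151 to 715 FPKM while the replication genes stay between 5528 and 5650. In splenic CD45+ cells replicate 2 is high for the replication genes and not for the core or linker histones.

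The DNA replication list (MCM helicase, polymerase, nucleotide synthesis and licensing genes) was tested because it is not made of members. Counts for this list and those below stand beside the shares of all genes tested that were called lower and higher. These were 5.02% and 50.5% between the splenic groups and 26.0% and 37.7% between tumor and splenic CD45+ cells. Between tumor and splenic CD45- cells they were 22.5% and 67.5%. Between splenic CD45+ and CD45- cells, 1 of 35 genes passed as lower, Tk1 (thymidine kinase), which fell by 1.19 (adjusted p = 0.04), and the list median was -0.44. Without splenic CD45+ replicate 2, 33 genes passed as lower and the median was -0.99. Tk1 did not pass when any 1 of the other 5 libraries was left out. Many more of the 35 passed as lower with either other scaling, as counted in the closing section. Globin genes took 62.5% to 63.5% of all FPKM in splenic CD45-, 29.3% to 52.1% in splenic CD45+ and 1.8% to 10.4% in tumor CD45+ libraries. FPKM are scaled to the whole library, and the part of the globin share in these differences was not tested. Between tumor and splenic CD45+ cells 28 of 35 passed as lower, with a median of -1.53, led by Rrm2 (the small subunit of ribonucleotide reductase, -3.34 ± 0.34 SE, adjusted p = 0.000101) and the licensing factor Cdc6 (-3.15 ± 0.47 SE, adjusted p = 0.000708). All 35 passed as lower in tumor against splenic CD45- cells, with a median of -1.88. The members' medians in the same 3 comparisons were -2.65, -0.63 and -3.30. Of 20 mitosis genes, 1, 20 and 20 passed as lower in these comparisons. The count in the first of them was 15 without splenic CD45+ replicate 2.

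Linker histone genes were lower in splenic CD45+ than in splenic CD45- cells and of both signs between tumor and splenic CD45+ cells. All 5 linker genes tested fell from splenic CD45- to CD45+ cells, with a median of -2.68, led by H1f3 (-2.96 ± 0.64 SE, adjusted p = 0.00654) and H1f5 (-2.82 ± 0.51 SE, adjusted p = 0.0033). The count was 2 without splenic CD45- replicate 1 and 3 without replicate 2. From splenic to tumor CD45+ cells H1f2 rose by 1.13 ± 0.30 SE (adjusted p = 0.0123), while H1f1 (-0.77, adjusted p = 0.00307) and H1f5 (-0.70, adjusted p = 0.0276) fell. H1f2 was at 151, 293 and 85.1 FPKM in splenic CD45-, 59.2, 33.6 and 88.6 in splenic CD45+ and 145, 121, 122 and 109.9 in tumor CD45+ libraries. H1f5 did not pass in that comparison without splenic CD45+ replicate 3 (-0.67) or without tumor replicate 2, 3 or 4 (-0.61, -0.64 and -0.67).

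Replacement histones, a list that here includes H2ax and Cenpa, moved in both directions. Between the splenic groups 1 of 9 tested rose and 4 fell. The macro histone gene Macroh2a1 rose by 3.08 ± 0.41 SE (adjusted p = 0.00141) and H2ax, the histone of DNA damage signalling, fell by 1.34 ± 0.24 SE (adjusted p = 0.00334). From splenic to tumor CD45+ cells 3 of 10 rose and 3 fell, near the 37.7% and 26.0% of all genes tested. H1f0, the linker histone of resting and differentiated cells, rose by 2.86 ± 0.34 SE (adjusted p = 0.000223). It was at 12.9, 12.7 and 10.7 FPKM in splenic CD45-, 16.2, 44.1 and 15.95 in splenic CD45+ and 193, 161, 163 and 165 in tumor CD45+ libraries, the reverse of the core histone order. H2ax was at 412, 372 and 301 FPKM in splenic CD45-, at 109, 180.3 and 144 in splenic CD45+ and in tumor cells at 38.5, 35.2, 36.6 and 30.9, the same order as the core histones. The H3.3 gene H3f3a fell between the splenic groups by 0.57 (adjusted p = 0.0218) and again from splenic to tumor CD45+ cells by 1.08 (adjusted p = 0.000772). Its first fall did not pass without splenic CD45- replicate 1, 2 or 3 or splenic CD45+ replicate 1 (-0.58, -0.59, -0.55 and -0.51), and the count of replacement histones that fell was then 1. The other H3.3 gene, H3f3b, rose from splenic to tumor CD45+ cells by 0.90 ± 0.24 SE (adjusted p = 0.0128), which did not pass with trimmed-mean scaling (0.70).

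Genes that drive transcription of histone genes were lower in tumor cells. Of 10, 9 fell from splenic to tumor CD45+ cells, led by the cyclin E genes Ccne1 (-3.27 ± 0.44 SE, adjusted p = 0.000406) and Ccne2 (-2.77 ± 0.27 SE, adjusted p = 8.06e-05). Npat, the coactivator of histone genes, was at 5.32, 8.23 and 6.16 FPKM in splenic CD45-, 6.45, 13.9 and 5.66 in splenic CD45+ and 2.70, 2.96, 2.76 and 2.79 in tumor CD45+ libraries. Npat fell from splenic to tumor CD45+ cells by 1.25 ± 0.27 SE (adjusted p = 0.00459) and overlapped between the splenic groups. Casp8ap2, which acts with NPAT, fell by 1.60 ± 0.30 SE (adjusted p = 0.00231). Between the splenic groups 2 of 10 passed as higher and 1 as lower. The lower count was 4 without splenic CD45+ replicate 2 and 5 with either other scaling.

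The gene of the stem-loop binding protein was lowest in tumor cells. Slbp was at 247, 307 and 321 FPKM in splenic CD45-, 167, 495 and 186 in splenic CD45+ and 36.0, 42.8, 44.1 and 53.4 in tumor CD45+ libraries. The splenic groups overlapped and all tumor values lay below them. It fell by 2.48 ± 0.37 SE from splenic to tumor CD45+ cells (adjusted p = 0.000718). The difference between the splenic groups was -0.22 ± 0.41 SE (adjusted p = 0.676), and -0.71 without splenic CD45+ replicate 2 (adjusted p = 0.00202). Within splenic CD45- cells Slbp was lowest in replicate 1, whereas the members were lowest in replicate 3.

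Of the other stem-loop processing genes, Lsm10, a protein of the U7 particle that guides the cut after the stem-loop, rose from splenic to tumor CD45+ cells by 1.00 ± 0.13 SE (adjusted p = 0.00037). Its values were 8.21, 7.03 and 8.21 FPKM in splenic CD45-, 14.1, 13.2 and 12.8 in splenic CD45+ and 26.0, 27.0, 27.8 and 29.9 in tumor CD45+ libraries. Between the splenic groups its difference was 0.70, which turned to -0.15 and -0.26 with trimmed-mean and median-ratio scaling. In all, 2 of 21 genes of this list rose and 9 fell from splenic to tumor CD45+ cells. The count of those that rose was 7 without splenic CD45+ replicate 2 and 1 without replicate 3 or without tumor replicate 2, 3 or 4. Of 20 tested between the splenic groups, 5 passed as higher, against 1 with either scaling and 3 without splenic CD45- replicate 2 or 3. Of all genes tested there, 50.5% were called higher.

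Genes of general poly(A) tailing were lower in tumor cells where they changed. Of 14, 7 fell from splenic to tumor CD45+ cells, 4 without any 1 tumor replicate, led by the cleavage factors Clp1 (-2.05 ± 0.13 SE, adjusted p = 9.19e-06) and Pcf11 (-1.67 ± 0.21 SE, adjusted p = 0.000327). Among 19 chaperones and carriers of new histones, 13 fell and 2 rose, the latter count being 1 without splenic CD45+ replicate 3 or tumor replicate 2 or 3. Asf1b, which hands H3 and H4 to the assembly factors, fell by 1.75 ± 0.24 SE (adjusted p = 0.000454) and Dnajc9, an H3-H4 cochaperone, by 1.83 ± 0.29 SE (adjusted p = 0.001). The importin gene Ipo4, which brings H3 and H4 into the nucleus, rose by 1.40 ± 0.16 SE (adjusted p = 0.000177). Between the splenic groups 1 of the 19 passed as lower, Asf1b (-1.05, adjusted p = 0.0106), and 12 did without splenic CD45+ replicate 2.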

How the data were processed

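RNA was extracted with TRIZOL by a sequencing company, which also made the libraries, per the labels' protocols. Each sample has a deposited table of 1 value per RefSeq transcript model, on GRCm38.p6 per the submitters' processing notes. Their aligner and counter were not named. The deposited values carry no named unit and were read as FPKM computed by the authors, from their 2 decimals and length-weighted sums of 953307 to 1137767. Models were matched to symbols (60167 of 61685, of which 1843 were numbered copies) and summed per gene, and models without a symbol held 0.423% to 1.06% of FPKM. A gene was tested if 3 or more of the compared libraries reached 1 FPKM. Tests were made with limma 3.58.1 (R 4.3.3) on log2(FPKM + 1), groups compared by pair, at a Benjamini-Hochberg adjusted p below 0.05. The design allowed for counts or normalized values, and the second applied. The script was tested on simulated data. Tables were handled with Python 3.11.15, numpy 2.4.6, pandas 2.3.3 and matplotlib 3.10.9.

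Alternatives were trimmed-mean and median-ratio scaling, a pseudocount of 0.1, no filter, 1 fit of all 10 libraries, the replicate number as a block, the highest model of a gene, and leaving out each library. Averaging tumor replicates 2 and 3 was added after seeing the data. Members and gene lists were chosen with earlier results of these data known. Members named were, per type, the 3 highest by mean, those outside chromosome 13 that reached the filter, the 3 largest and 3 smallest differences between the splenic groups, and any whose model runs past the stem-loop. From each list, a fixed set (among them Slbp, Npat and Rrm2) and the largest called differences were eligible. Depth was inferred from the smallest steps between low values and bounds counting precision only.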

Additional observations from a re-analysis of the deposited data

Results flagged for a closer look

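Tumor CD45+ replicate 1 lay far above the 3 other tumor libraries in 5 of the 49 values checked over the tumor group, where chance sets about 1 in 20 groups apart in this way. The summed H2A members were at 157.77 FPKM there, against 102.76 to 108.47 in the others. The summed H3 members were at 40.43 FPKM, against 27.45 to 28.67. The replacement histone gene H2az1 was at 919.72 FPKM, against 599.78 to 608.82. Erythroid markers summed to 40981.64 FPKM in the same library, against 6000.87 to 6383.74, and granulocyte markers to 1680.73 FPKM, against 33.91 to 39.66. The part of these cell types in the histone values was not tested.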

How the results depend on the processing

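Members were lower than in splenic CD45- cells under every alternative run for their medians. Scaling moved the median of all genes tested between the splenic groups from 0.67 to -0.15 (trimmed-mean) and -0.27 (median-ratio), and from 1.06 to 0.11 with either between tumor and splenic CD45- cells. With trimmed-mean and median-ratio scaling, genes called between the splenic groups numbered 2503 and 2251 higher and 2366 and 3299 lower, against 4912 and 488, and the replication list had 21 and 30 lower, against 1. That list had 2 lower with all libraries in 1 fit and 0 without the filter. The median member difference was -3.61 between the splenic groups with median-ratio scaling, and -4.32 and -4.34 from splenic CD45- to tumor cells, where 4720 and 4728 genes were called lower, against 2522. Trimmed-mean scaling gave mean member sums of 5610 FPKM in splenic CD45-, 371 in splenic CD45+ and 275 in tumor CD45+ cells, against 3403, 427 and 360.03. Members lower in tumor against splenic CD45+ cells numbered 8 with all libraries in 1 fit.

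Between libraries with the same replicate number, correlations of deviations from the group mean ran from -0.175 to 0.235. With 3 or 4 libraries per group these values cannot decide whether replicate numbers pair the samples. With the replicate block 17 members passed as lower between tumor and splenic CD45+ cells, against 26, and 53 in each of the other comparisons.

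With trimmed-mean and median-ratio scaling, differences between the splenic groups turned to -0.16 and -0.27 for Casp8ap2, -0.14 and -0.25 for Cpsf6, -0.58 and -0.70 for H3f3b, -0.10 and -0.20 for Ipo4, -0.15 and -0.26 for Lsm10 and -0.56 and -0.67 for Npat, and between tumor and splenic CD45- cells to -0.40 and -0.41 for Creb1. Leaving out 1 library took the difference between the splenic groups over -0.469 to 0.096 for Eri1, -0.714 to 0.067 for Slbp and -0.086 to 0.493 for Npat, and that between tumor and splenic CD45+ cells over -0.003 to 0.334 for Lsm11. The sign turned without splenic CD45+ replicate 1 (Eri1 and Slbp), replicate 2 (Npat) or replicate 3 (Lsm11, and Eri1 at 0.049). The cause was not tested.

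Leaving out 1 library gave, between the splenic groups, 2741 to 3910 genes higher, 201 to 1419 lower, 42 to 53 members lower, 0 to 33 replication genes lower and a member median of -3.25 to -2.14. The lowest count of lower genes came without splenic CD45- replicate 1 and the highest without splenic CD45+ replicate 2. Between tumor and splenic CD45+ cells the ranges were 3718 to 4991, 2390 to 2958, 21 to 30, 22 to 31 and -0.72 to -0.52. Between tumor and splenic CD45- cells they were 7226 to 7655, 2137 to 2519, 50 to 54, 34 to 35 and -3.91 to -2.80.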
